A study of Mus musculus with 9 samples.

Results

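The genes described here encode the enzymes and regulators of cholesterol and fatty acid synthesis that are known targets of the sterol regulatory element binding proteins (SREBPs). They were chosen by gene symbol from the table of raw read counts, and comprise 33 of its 53465 genes: 18 of sterol synthesis, 9 of fatty acid synthesis, and 6 regulators and carriers of sterols. All 33 passed the filter on low counts, a level above 1 CPM in at least 3 libraries (CPM being the count relative to library size), which 11950 genes passed.

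SREBPs are made as membrane proteins of the endoplasmic reticulum. When sterols are scarce, the escort protein Scap carries them to the Golgi, where proteases release the part that enters the nucleus and switches on these genes. When sterols are plentiful, the Insig proteins hold Scap and SREBP back. SREBP2, the product of Srebf2, is known mainly for the sterol genes, and SREBP1, the product of Srebf1, for the fatty acid genes. In macrophages, lipid synthesis supplies growing membranes and is known to change when the cells are activated.

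RNA-Seq was performed on bone marrow-derived macrophages (BMDMs) of male wild-type C57BL/6 mice (substrain J in the study's methods), grown with CSF1, the macrophage growth factor, at 50 ng/ml, in medium with 10% serum and 5 mM glutamine. Of the 9 libraries, 3 were of BMDMs left untreated (UNX). A further 3 were of BMDMs given CO-CM, medium conditioned by pulmonary artery adventitial fibroblasts of control neonatal calves, and 3 of BMDMs given PH-CM, the same from calves with pulmonary hypertension induced by hypoxia. The comparisons ask how fibroblast products of either origin alter macrophage transcription. The ages of the mice were not given in the sources used here. Media of several fibroblast populations were pooled for each kind, so a replicate stands for a macrophage culture and not for a calf. The labels state both 16 h and 24 h as the treatment time, and the study's methods give a time between these and a lower glutamine level. Both conditioned media had been on fibroblasts in calf serum and received fetal bovine serum before use, whereas the untreated cells received no conditioned medium. The study's methods do not state whether the conditioned media held CSF1 during treatment. Fibroblast products and the lipids, serum, nutrients or CSF1 of the media therefore cannot be told apart in a comparison with UNX.

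The libraries held 62017933 to 84314201 counted reads, of which the 33 genes took 0.349% to 0.493% in UNX, 0.176% to 0.190% in CO-CM and 0.234% to 0.243% in PH-CM. The macrophage markers (8 of 8 detected) summed to at least 11818 CPM in every library. Neutrophil markers summed to at most 1.53 CPM and dendritic cell markers to at most 0.885 CPM. Ly6g, which defines neutrophils, had no read in any group. Fibroblast markers, mostly the collagens Col1a1 and Col1a2, summed to 197 to 249 CPM in UNX, 267 to 318 CPM in CO-CM and 249 to 335 CPM in PH-CM. Of the 8 fibroblast markers, 6 passed the filter, and 4 of these 6 were called higher under PH-CM and 2 under CO-CM. Among all genes tested, 31.3% were called higher under PH-CM and 28% under CO-CM. The part of fibroblast RNA in the results was not tested. Adipocyte markers summed to 24.3 to 53.2 CPM in UNX, 177 to 257 CPM in CO-CM and 69.6 to 107 CPM in PH-CM, nearly all of it Fabp4, which macrophages also express, with Cidec and Lep at 0 reads in all groups. The osteoclast marker sum was 15.2 to 27.8 CPM in UNX and 34.9 to 66.7 CPM in the conditioned media, with Calcr at 0 reads. In bulk RNA, fewer cells of a type and less RNA per cell cannot be told apart.

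UNX replicate 1 stood apart from the other untreated libraries in these genes. It had the lowest level of the 3 UNX libraries in 32 of the 33 genes, the exception being Scap, against 39.0% of all genes tested. Over the 33 genes its level minus the mean of UNX replicates 2 and 3 had a median of -0.45 on the log2 CPM scale, whereas over all genes tested the median was 0.01. The gap was widest for Scd1 and Scd2, the stearoyl-CoA desaturases, at 37.7% and 39.3% of the mean CPM of the other UNX libraries, and narrow for Srebf2 at 89.5%. The cell cycle genes of this library summed to 4462 CPM, the highest of the UNX libraries, and its depth was the lowest of the 9. Results against UNX are therefore given with and without this library where it matters.

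**Figure D1:**
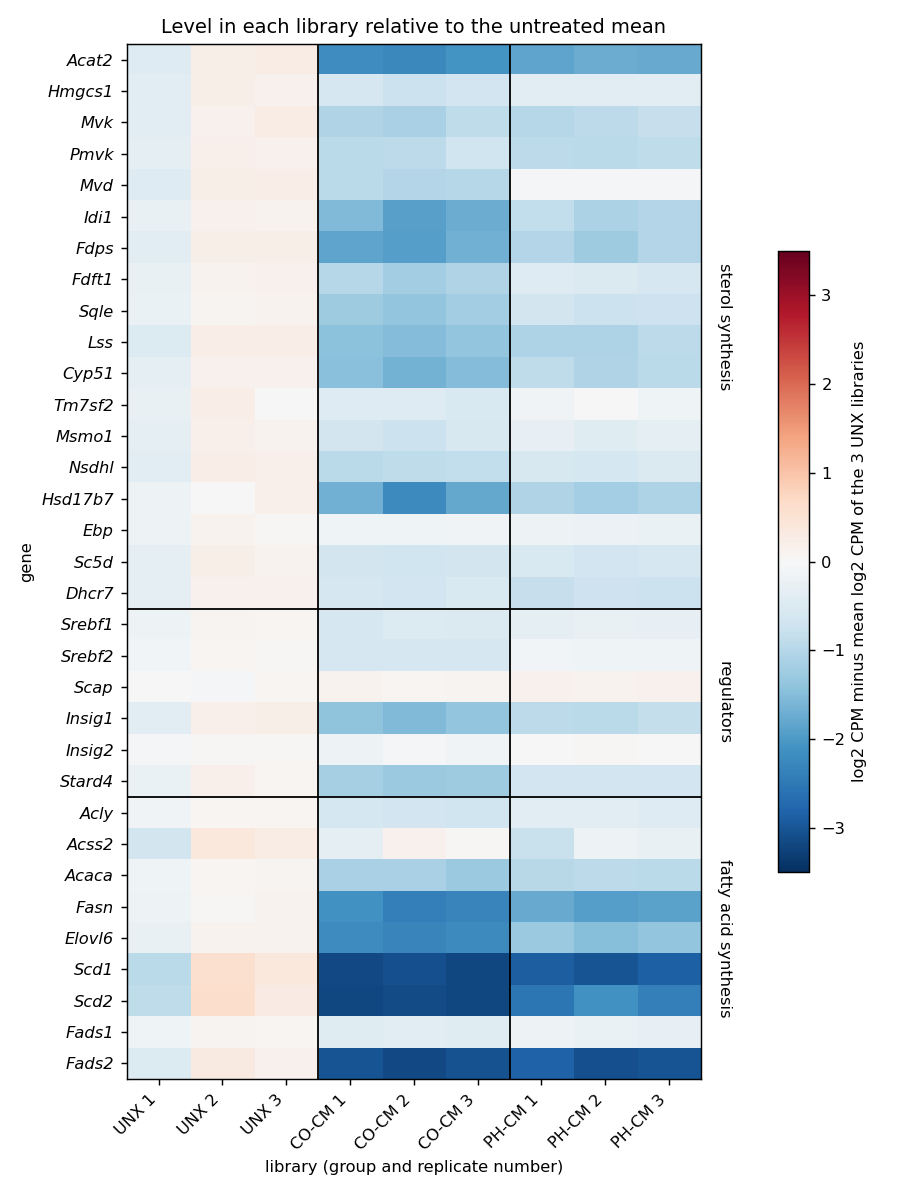
Level of each of the 33 genes (rows) in each of the 9 libraries (columns), as log2 CPM minus the mean of the 3 UNX libraries, with blue below and red above that mean. Scd1, Scd2 and Fads2 are the darkest rows under both conditioned media, Scap and Insig2 stay near white, and UNX 1 is pale blue while UNX 2 and UNX 3 are white to pale red in nearly every row.

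To place the sequences that SREBPs and their partner factors are known to read, promoter windows of 300 bases (250 before and 50 after the RefSeq start site, GRCm38.p6) were searched on both strands. Windows were present for 26 of the 33 genes, 15 of them sterol genes, 6 fatty acid genes and 5 regulators. Dhcr7, Insig2 and Srebf1 had 3 windows each, and Pmvk and Scap 2 each. A gene was counted once, as a match if any of its windows matched. The SREBP motif TCACNCCAC occurred in 1 of the 26 genes, Hmgcs1, and in 1.44% of the 9021 genes tested that had a window. Its inner 8 letters, CACNCCAC, occurred in 3 of 26 (Hmgcs1, Acat2 and Insig1), against 7.66% of those genes. The box of the partner factor NF-Y, CCAAT, occurred in 21 of 26, against 43.3%. It was present in 14 of the 15 sterol genes, 4 of the 5 regulators and 3 of the 6 fatty acid genes. The Sp1 box GGGCGG occurred in 22 of 26 genes, against 69.4%. TCACNCCAC contains CACNCCAC, so those counts overlap. Only these exact letters were searched (N being any base), so a gene without a match may still hold a site with other letters. A match is a description of the letters, and binding was not measured.

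The bases before the start site are shown for 4 genes, 5′ to 3′ on the strand of the gene, with CCAAT and SREBP motif matches on either strand in capitals. Hmgcs1 (chr13:119690101-119690350, plus strand) is shown because it holds the full SREBP motif, 137 bases before the start site, between NF-Y boxes. Acat2 (chr17:12960748-12960975, minus strand) is the sterol gene that fell most and holds the shorter SREBP motif at 2 places. Srebf2 (chr15:82147019-82147180, plus strand) encodes SREBP2 itself, and Fasn (chr11:120824548-120824797, minus strand) heads the fatty acid genes with 3 NF-Y boxes, of which 2 share bases. The stretches of Acat2 and Srebf2 end where the annotated gene begins.
Hmgcs1: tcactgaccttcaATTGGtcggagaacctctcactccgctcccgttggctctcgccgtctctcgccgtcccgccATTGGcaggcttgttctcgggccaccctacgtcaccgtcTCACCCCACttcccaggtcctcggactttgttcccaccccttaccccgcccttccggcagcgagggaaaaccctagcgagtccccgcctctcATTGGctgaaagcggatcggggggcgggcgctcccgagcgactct
Acat2: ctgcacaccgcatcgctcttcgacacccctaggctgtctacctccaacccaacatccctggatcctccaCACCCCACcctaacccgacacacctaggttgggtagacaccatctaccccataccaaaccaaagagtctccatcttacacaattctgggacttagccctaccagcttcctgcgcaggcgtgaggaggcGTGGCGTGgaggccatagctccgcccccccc
Srebf2: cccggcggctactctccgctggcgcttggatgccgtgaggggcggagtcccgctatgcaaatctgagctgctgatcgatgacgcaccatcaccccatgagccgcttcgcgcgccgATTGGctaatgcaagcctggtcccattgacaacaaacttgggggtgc
Fasn: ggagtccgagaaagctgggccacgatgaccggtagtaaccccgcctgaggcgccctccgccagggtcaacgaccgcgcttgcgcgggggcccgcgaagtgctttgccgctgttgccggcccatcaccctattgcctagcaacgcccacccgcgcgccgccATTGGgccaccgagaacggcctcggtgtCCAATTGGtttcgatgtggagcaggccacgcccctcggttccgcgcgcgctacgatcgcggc

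The genes of sterol and fatty acid synthesis were lower under both conditioned media than in UNX, and the fatty acid mean lay further below UNX than the sterol mean. Averaged over the 18 sterol genes, the level was 5.56, 6.05 and 6.04 log2 CPM in UNX replicates 1 to 3, 4.81, 4.69 and 4.83 in CO-CM, and 5.18, 5.13 and 5.18 in PH-CM. Averaged over the 9 fatty acid genes it was 6.31, 6.98 and 6.90 log2 CPM in UNX, 4.93, 4.94 and 4.92 in CO-CM, and 5.22, 5.25 and 5.24 in PH-CM. In both arms every UNX library was above every PH-CM library, and every PH-CM library above every CO-CM library. The sterol mean differed from UNX by -1.11 log2 units under CO-CM and -0.72 under PH-CM, 2.15-fold and 1.65-fold lower. For the fatty acid mean the differences were -1.80 and -1.50 log2 units, 3.48-fold and 2.82-fold lower. These means are over genes chosen with results known and are given without a test.

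**Figure D2:**
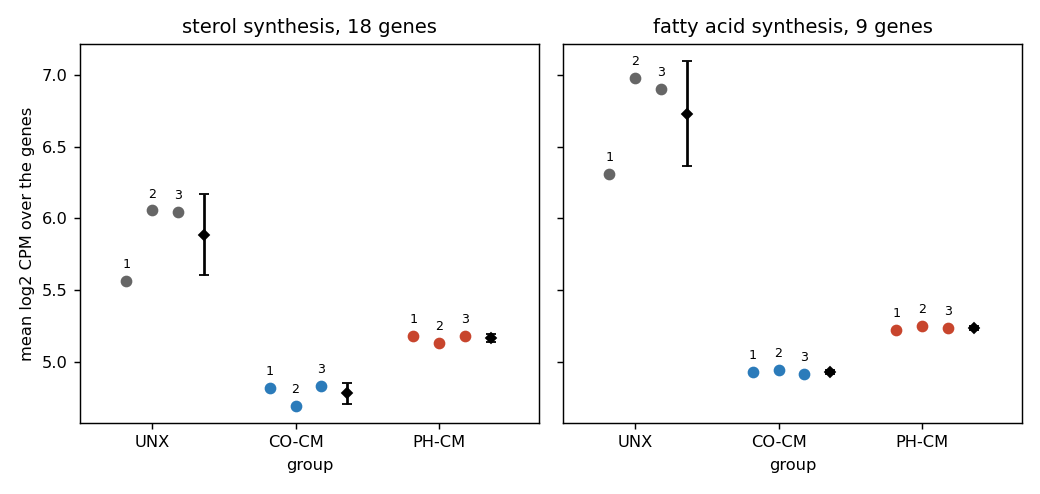
Mean log2 CPM over the 18 sterol genes (left) and the 9 fatty acid genes (right) in each library, numbered by replicate, with the group mean and SD (n = 3) as a black diamond and bar. The UNX means are 5.89 and 6.73, the CO-CM means 4.78 and 4.93, and the PH-CM means 5.16 and 5.23.

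The distance between the means of the arms also shifted. Scd1, Scd2 and Fads2 weigh on the fatty acid mean here too, and the distance was not computed without them. The sterol mean minus the fatty acid mean was -0.85 ± 0.09 log2 units in UNX, -0.15 ± 0.09 in CO-CM and -0.07 ± 0.04 in PH-CM (SD, n = 3). All 3 UNX libraries lay between -0.93 and -0.75, and all 6 libraries with conditioned medium between -0.25 and -0.04. UNX replicate 1, which was low in both arms, was at -0.75, nearer to the conditioned media than the other UNX libraries at -0.93 and -0.86. Between the conditioned media the difference was 0.08 log2 units, smaller than the SD among the CO-CM libraries, but within replicate numbers 1 to 3 it was 0.08, 0.13 and 0.03, of one sign in 3 of 3 pairs.

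Gene by gene, an adjusted p (FDR) of at most 0.05 in edgeR's quasi-likelihood test over all genes tested and a change of at least 1.2-fold were required for a call. Against UNX, 29 of the 33 genes fell under CO-CM and 25 under PH-CM. None was called higher by this test, by edgeR's exact test or by DESeq2, and at an unadjusted p under 0.05 only Scap was higher, under PH-CM. Of all genes tested, 57% were called under CO-CM (28% higher, 28.9% lower) and 63% under PH-CM (31.3% higher, 31.7% lower). The 25 genes that fell under PH-CM were all among the 29 that fell under CO-CM. The comparisons share their untreated libraries and so are not independent. The median log2 fold change of the 33 genes was -1.05 under CO-CM and -0.72 under PH-CM, where the median of all genes tested was 0.00 and 0.01. By arm, 17 of 18 sterol genes, 8 of 9 fatty acid genes and 4 of 6 regulators fell under CO-CM, and 15, 7 and 3 under PH-CM. Without UNX replicate 1, 29 genes fell under each medium, the additional ones under PH-CM being Mvd, Ebp, Acss2 and Fads1, and the medians were -1.23 and -0.83. The shares of all genes given above are those of the fit with all 9 libraries.

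**Figure D3:**
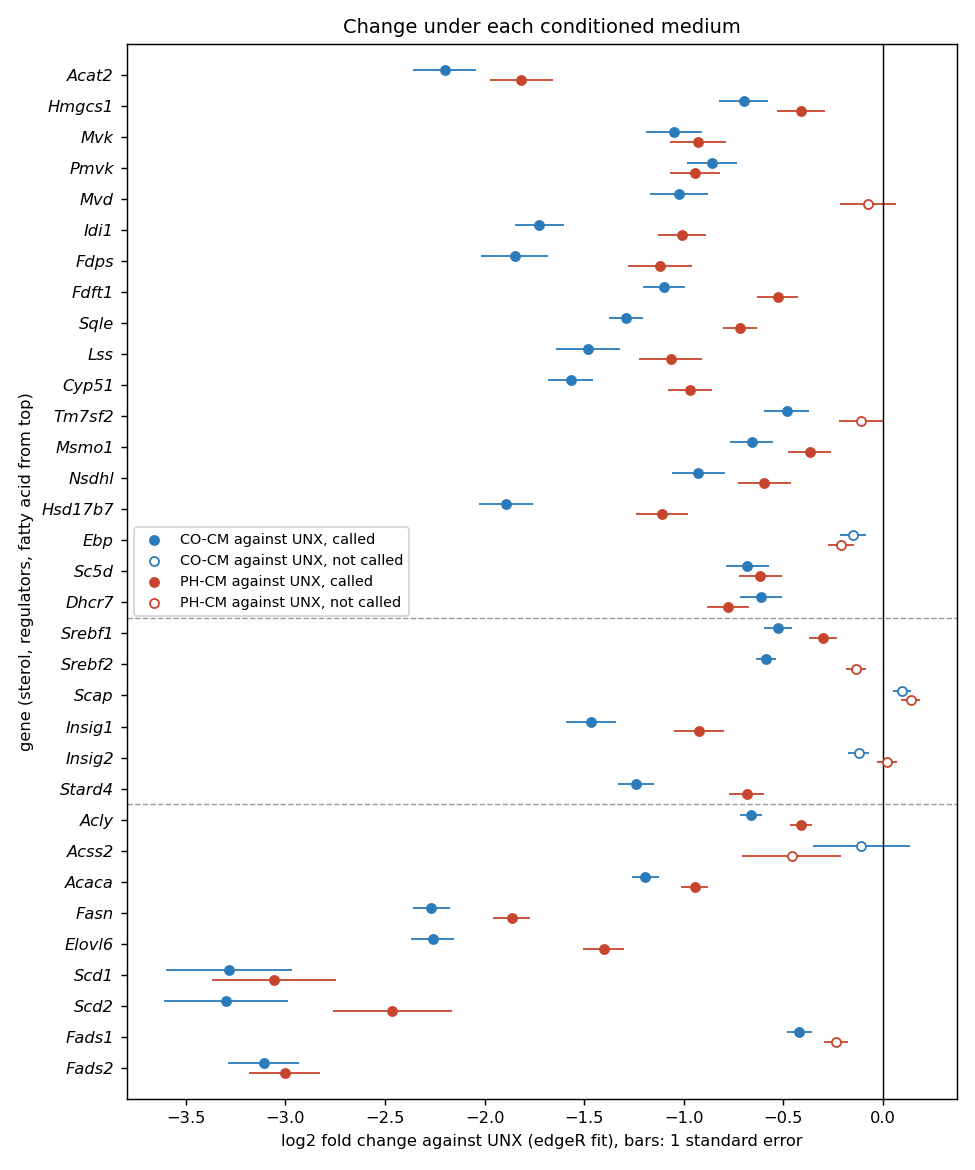
Log2 fold change against UNX with its standard error for each of the 33 genes (sterol genes at the top, regulators in the middle, fatty acid genes at the bottom) under CO-CM (blue) and PH-CM (red). Filled points were called, open points were not. The points reach -3.30 for Scd2 under CO-CM, and the called points all lie left of 0.

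The genes of the mevalonate steps, which build isoprene units from acetyl-CoA, fell in 7 of 7 cases under CO-CM and 6 of 7 under PH-CM. Of all genes tested, 28.9% fell under CO-CM and 31.7% under PH-CM. Acat2, which joins acetyl-CoA units at the start of the route, stood at 34.5, 54.8 and 56.3 CPM in UNX, 10.6, 9.86 and 11.2 CPM in CO-CM, and 13.2, 14.2 and 14.0 CPM in PH-CM. All treated libraries lay far below the lowest UNX library. Acat2 fell 4.60-fold under CO-CM (log2 fold change -2.20 ± 0.16 SE, FDR 8.7e-07) and 3.52-fold under PH-CM (-1.82 ± 0.16, FDR 2.2e-06), the largest falls among the sterol genes. Hmgcs1, the HMG-CoA synthase, was measured at 123, 183 and 176 CPM in UNX, 105, 93.1 and 98.7 CPM in CO-CM and 121, 120 and 122 CPM in PH-CM. Its PH-CM libraries thus lay just below UNX replicate 1, and it fell 1.62-fold under CO-CM (FDR 0.00046) and 1.33-fold under PH-CM (FDR 0.010).

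Idi1, the isomerase of the isoprene unit, was at 27.2, 35.9 and 35.2 CPM in UNX, 11.1, 8.78 and 9.84 CPM in CO-CM, and 17.9, 15.1 and 15.9 CPM in PH-CM. The 3 groups did not overlap, and it fell 3.31-fold under CO-CM and 2.01-fold under PH-CM. Fdps, which makes farnesyl diphosphate, the branch point to sterols and other isoprenoids, fell 3.60-fold and 2.17-fold, from a UNX mean of only 2.38 RPKM. Of its exon bases, 26.7% overlap a neighbouring gene on the same strand, so its level is uncertain. The mevalonate and phosphomevalonate kinases Mvk and Pmvk fell too, with log2 fold changes of -1.05 and -0.86 under CO-CM and of -0.93 and -0.95 under PH-CM.

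Mvd, the mevalonate diphosphate decarboxylase, was the exception among these steps. It stood at 46.0, 72.9 and 73.7 CPM in UNX, 32.4, 30.9 and 31.4 CPM in CO-CM, and 60.5, 60.9 and 61.5 CPM in PH-CM. The PH-CM libraries lay inside the UNX range and above all CO-CM libraries. Mvd fell 2.03-fold under CO-CM (FDR 0.00010), while the PH-CM estimate was -0.08 (95% interval -0.39 to 0.24, FDR 0.64). Without UNX replicate 1 the PH-CM estimate was -0.28, a 1.21-fold fall with an FDR of 0.00030, so this call rests on that library.

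The steps from farnesyl diphosphate to lanosterol fell in 3 of 3 cases under both media. The shares of all genes tested that fell were 28.9% under CO-CM and 31.7% under PH-CM. Sqle, the squalene epoxidase and a rate-controlling enzyme, stood at 209, 262 and 265 CPM in UNX, 103, 93.1 and 105 CPM in CO-CM, and 155, 145 and 147 CPM in PH-CM. The groups were ordered UNX, PH-CM, CO-CM without overlap. Sqle fell 2.45-fold under CO-CM (-1.29 ± 0.09, FDR 4.9e-07) and 1.65-fold under PH-CM (-0.72 ± 0.09, FDR 2.4e-05). Lss, the lanosterol synthase, fell 2.79-fold and 2.09-fold. Fdft1, the squalene synthase, fell 2.14-fold and 1.44-fold. Fdft1 shares 774 exon bases with Ctsb on the other strand, and no option for strand is among those stated for the counting. Its level is therefore uncertain.

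Of the 8 genes that turn lanosterol into cholesterol, 7 fell under CO-CM and 6 under PH-CM, beside 28.9% and 31.7% of all genes tested. Hsd17b7, a sterol 3-ketoreductase, was at 47.9, 55.0 and 61.1 CPM in UNX, 17.1, 11.5 and 15.6 CPM in CO-CM, and 26.3, 23.8 and 25.9 CPM in PH-CM. It fell 3.71-fold and 2.16-fold, the largest falls of these steps, with no overlap among the groups. Cyp51, the lanosterol demethylase, was at 136, 189 and 187 CPM in UNX, 60.7, 53.7 and 58.5 CPM in CO-CM and 91.9, 81.8 and 88.3 CPM in PH-CM. It fell 2.96-fold (FDR 8.0e-07) and 1.96-fold (FDR 1.8e-05).

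The other enzymes after lanosterol moved less. Nsdhl fell 1.90-fold under CO-CM and 1.51-fold under PH-CM, and Msmo1, the sterol methyl oxidase, 1.58-fold and 1.29-fold. For Msmo1 the PH-CM libraries, at 143.9, 132.7 and 138.7 CPM, overlapped UNX, at 143.3, 199.4 and 193.2 CPM. Sc5d, a sterol desaturase, fell 1.60-fold and 1.53-fold. Dhcr7, which reduces 7-dehydrocholesterol to cholesterol, fell 1.53-fold under CO-CM and 1.72-fold under PH-CM, and no difference between the media was called (FDR 0.25). Tm7sf2, a sterol reductase, fell 1.40-fold under CO-CM and had an estimate of -0.11 ± 0.11 under PH-CM. Of its exon bases, 532 overlap Vps51 on the same strand. Ebp, the sterol isomerase, stood at 49.1, 59.9 and 56.8 CPM in UNX, 49.2, 50.0 and 50.2 CPM in CO-CM, and 48.4, 47.9 and 46.9 CPM in PH-CM. Those values span little more than UNX itself. Ebp was called under neither medium, with log2 fold changes of -0.15 (95% interval -0.30 to -0.0047) and -0.21 (-0.36 to -0.07). Its PH-CM level, 1.16-fold below UNX (FDR 0.014), missed only the fold threshold.

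Among the regulators, Insig1 and Stard4 fell most, and the genes of the SREBP factors fell less or were not called. Srebf2 stood at 358, 400 and 399 CPM in UNX, 258, 255 and 255 CPM in CO-CM, and 357, 347 and 347 CPM in PH-CM. It fell 1.50-fold under CO-CM (-0.59 ± 0.05, FDR 2.8e-06), and its PH-CM level, 1.10-fold below UNX (-0.14 ± 0.05, FDR 0.029), missed the fold threshold. Srebf1 was at 142, 173 and 170 CPM in UNX, 107, 116 and 113 CPM in CO-CM, and 127, 136 and 131 CPM in PH-CM. It fell 1.44-fold under CO-CM and 1.23-fold under PH-CM, and the PH-CM call was lost without UNX replicate 2 (log2 fold change -0.26), which falls short of 1.2-fold. The counts do not separate the promoter variants of Srebf1.

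Of the paralogs Insig1 and Insig2, which retain the Scap complex in the endoplasmic reticulum, Insig1 fell and Insig2 was not called. Insig1, itself a well-known SREBP target, was at 153, 222 and 226 CPM in UNX, 74.5, 67.8 and 75.5 CPM in CO-CM, and 104, 102 and 112 CPM in PH-CM. It fell 2.76-fold (-1.46 ± 0.13) and 1.90-fold (-0.92 ± 0.12). Insig2 stood at 26.0, 27.8 and 27.7 CPM in UNX, 24.2, 25.7 and 24.9 CPM in CO-CM, and 27.0, 28.0 and 27.6 CPM in PH-CM, with log2 fold changes of -0.12 and 0.02. Scap lay within 57.5 to 67.4 CPM in all 9 libraries and was not called either (0.10 and 0.14). Its PH-CM level, 1.10-fold above UNX (FDR 0.018), missed only the fold threshold. Stard4, a carrier of cholesterol between membranes, fell 2.37-fold under CO-CM and 1.61-fold under PH-CM, from 96.5, 128 and 120 CPM in UNX to 51.1, 46.1 and 48.5 CPM and to 72.0, 71.4 and 71.1 CPM.

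The fatty acid genes held the largest falls of the whole set. At the entry, Acly, which makes cytosolic acetyl-CoA from citrate, fell 1.58-fold under CO-CM and 1.33-fold under PH-CM. Acaca, the acetyl-CoA carboxylase that commits carbon to fatty acids, was at 78.3, 90.1 and 91.8 CPM in UNX, 39.5, 39.2 and 35.0 CPM in CO-CM, and 44.6, 45.4 and 45.2 CPM in PH-CM. It fell 2.29-fold and 1.93-fold. Fasn, the fatty acid synthase, was at 340, 397 and 419 CPM in UNX, 89.0, 73.7 and 77.4 CPM in CO-CM, and 113, 100 and 104 CPM in PH-CM. Every treated library was far below the lowest UNX library. Fasn fell 4.82-fold under CO-CM (-2.27 ± 0.09, FDR 1.8e-08) and 3.64-fold under PH-CM (-1.86 ± 0.09, FDR 3.3e-08).

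Acss2, which makes acetyl-CoA from acetate, was at 7.24, 14.5 and 13.4 CPM in UNX, 8.79, 12.4 and 11.5 CPM in CO-CM, and 6.56, 9.85 and 9.32 CPM in PH-CM. Replicate 1 was the lowest library of every group. It was not called under either medium (log2 fold changes -0.11 ± 0.24 and -0.46 ± 0.25). The replicate numbers were found to pair the libraries, and with replicate number as a block Acss2 fell under PH-CM against UNX (-0.43 ± 0.10, FDR 0.0020) and lay lower under PH-CM than CO-CM (-0.35 ± 0.10, FDR 0.012). Of its exon bases, 395 overlap Gss.

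Elongation and desaturation were the most affected steps, with median log2 fold changes of -3.11 under CO-CM and -2.46 under PH-CM over 5 genes. Over the 4 genes from acetyl-CoA to palmitate the medians were -0.93 and -0.70, near those of the 18 sterol genes at -1.04 and -0.75. Scd1 and Scd2 introduce the first double bond into stearate and palmitate. Scd2 was at 325, 918 and 739 CPM in UNX, 65.8, 69.2 and 66.8 CPM in CO-CM, and 105, 140 and 115 CPM in PH-CM. It fell 9.82-fold under CO-CM (-3.30 ± 0.31, FDR 5.5e-06) and 5.51-fold under PH-CM (-2.46 ± 0.30, FDR 2.8e-05). Scd1 was at 35.8, 101 and 88.5 CPM in UNX, 7.61, 8.10 and 7.53 CPM in CO-CM, and 9.28, 8.47 and 9.40 CPM in PH-CM. It fell 9.72-fold and 8.32-fold, with groups that did not overlap although UNX replicate 1 was far below the other untreated libraries. Without that library the falls were 12.4-fold and 6.96-fold for Scd2 and 12.4-fold and 10.6-fold for Scd1.

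Fads1 and Fads2, which desaturate the precursors of polyunsaturated fatty acids, are neighbours on chromosome 19 with changes of different size. Fads2 stood at 51.6, 89.3 and 79.6 CPM in UNX, 8.88, 8.07 and 8.63 CPM in CO-CM, and 10.1, 8.55 and 8.86 CPM in PH-CM. Fads1 stood at 144, 171 and 167 CPM in UNX, 119, 122 and 119 CPM in CO-CM, and 141, 136 and 132 CPM in PH-CM. Fads2 fell 8.62-fold under CO-CM and 8.01-fold under PH-CM. Fads1 fell 1.34-fold under CO-CM, and its PH-CM level was 1.18-fold below UNX (FDR 0.0049), short of the fold threshold. Elovl6, which elongates palmitate, was at 23.7, 30.7 and 30.8 CPM in UNX, 6.08, 5.72 and 5.99 CPM in CO-CM, and 11.5, 9.98 and 10.8 CPM in PH-CM. It fell 4.79-fold and 2.64-fold.

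On a scale per length (the deposited RPKM), the order of the genes changed with treatment. In UNX the highest were Scd2 at 124 ± 56.1 RPKM, Srebf2 at 79.4 ± 3.9, Acly at 66.9 ± 3.9 and Insig1 at 66.5 ± 12.8 (SD, n = 3). Acly and Insig1 did not differ beyond their spread, and the SD of Scd2 reached below the level of Srebf2. In CO-CM the order was Srebf2 at 50.3 ± 1.3 RPKM, Acly at 40.3 ± 2.1, Fads1 at 34.0 ± 0.4 and Insig1 at 23.0 ± 1.6, and the same 4 genes led in PH-CM at 69.4 ± 2.1, 48.3 ± 1.1, 39.0 ± 1.8 and 33.8 ± 1.6. Scd2 ranked 1 of 33 in UNX, 13 in CO-CM at 12.1 ± 0.15 RPKM and 10 in PH-CM at 21.7 ± 3.1. Acss2, at 1.18, 1.05 and 0.832 RPKM, and Fdps were among the lowest in every group.

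PH-CM was then compared with CO-CM, which asks what medium of hypertensive fibroblasts does beyond medium of control fibroblasts and rests on none of the UNX levels. Of the 33 genes, 14 were higher under PH-CM and 19 were not called. None was lower by this test, by edgeR's exact test, by DESeq2 or at an unadjusted p under 0.05, and the exact test and DESeq2 each called 18 higher. By the quasi-likelihood test, 27.1% of all genes tested were called, 12.2% higher and 15% lower. By arm, 8 of 18 sterol genes, 3 of 9 fatty acid genes and 3 of 6 regulators were higher. The median log2 fold change was 0.38 for the sterol genes, 0.25 for the fatty acid genes and 0.34 for the regulators, where the median of all genes tested was -0.01.

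The largest difference was that of Mvd, at 60.5 to 61.5 CPM in PH-CM and 30.9 to 32.4 CPM in CO-CM, or 1.93-fold (0.95 ± 0.14, FDR 0.00054). Elovl6 followed at 1.81-fold (0.86 ± 0.11, FDR 0.00016), then Scd2 at 1.78-fold, Hsd17b7 at 1.72-fold, Fdps at 1.66-fold and Idi1 at 1.64-fold. Cyp51, Sqle, Fdft1, Stard4 and Insig1 were 1.46-fold to 1.51-fold higher. Srebf2 was 1.37-fold higher, with the smallest FDR of the set (0.45 ± 0.05, FDR 7.1e-05), and its 3 PH-CM libraries, at 347 to 357 CPM, lay well above the 3 CO-CM libraries, at 255 to 258 CPM. Fasn was 1.32-fold higher and Tm7sf2 1.30-fold. The call of Scd2 had an FDR of 0.043 and was lost when any 1 of the 6 libraries of the comparison was left out (FDR 0.055 to 0.13). The call of Tm7sf2 was lost without CO-CM replicate 2, CO-CM replicate 3 or PH-CM replicate 2 (FDR 0.055, 0.083 and 0.091).

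**Figure D4:**
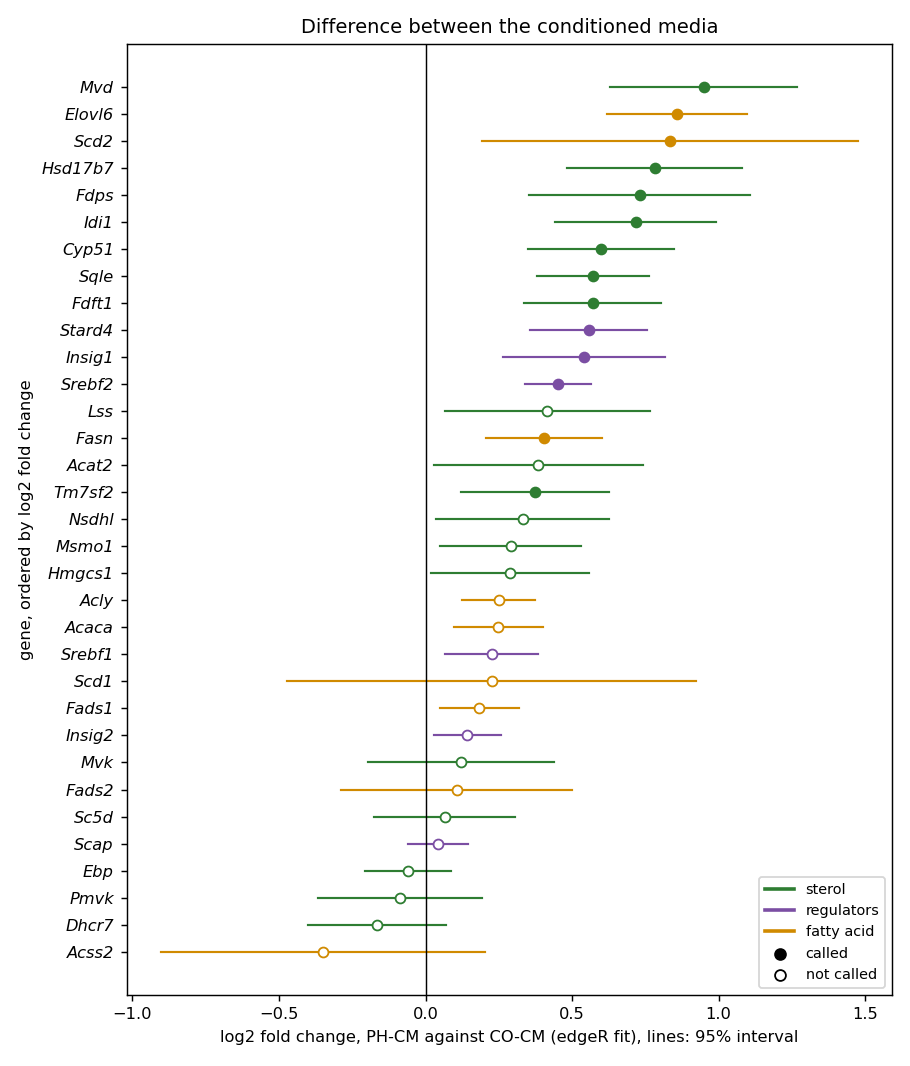
Difference between PH-CM and CO-CM (log2 fold change, PH-CM over CO-CM) with its 95% interval for each of the 33 genes, ordered by size and coloured by arm, with called genes filled. The 14 called genes run from 0.37 for Tm7sf2 to 0.95 for Mvd, and Acss2, at -0.35, is the lowest point.

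Several genes that fell against UNX were not called between the media. Fads2 was 1.08-fold higher under PH-CM (95% interval of the log2 fold change -0.29 to 0.50) and Scd1 1.17-fold (-0.47 to 0.92), intervals that still allow a difference. The Scd1 libraries of PH-CM, at 8.47 to 9.40 CPM, all lay above those of CO-CM, at 7.53 to 8.10 CPM. Acly, Acaca, Srebf1 and Fads1 passed the FDR but not the fold threshold, at 1.14-fold to 1.19-fold. Acat2, Lss, Msmo1 and Nsdhl were 1.22-fold to 1.33-fold higher with FDRs of 0.058 to 0.084, and Hmgcs1 1.22-fold with an FDR of 0.088. With replicate number as a block the first 4 of these were called higher, with blocked FDRs of 0.018 to 0.029, which brought the calls to 18 higher and 1 lower (Acss2). In a fit of the CO-CM and PH-CM libraries alone, so without the spread of UNX replicate 1, 19 genes were called, all of them higher. Within each replicate number, 29 of the 33 genes were higher under PH-CM in 3 of 3 pairs and 3 were lower in 3 of 3. The share of all genes tested with one sign in 3 of 3 pairs is not given here, so this count is a description.

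The RNA levels of cell cycle genes differed between the same groups. All 18 of 18 cell cycle genes were lower in every comparison, with median log2 fold changes of -2.57 under CO-CM and -3.21 under PH-CM against UNX and of -0.72 for PH-CM against CO-CM. Among all genes tested, 28.9% were lower under CO-CM, 31.7% under PH-CM and 15% for PH-CM against CO-CM. The summed level of the cell cycle genes was 4129 to 4462 CPM in UNX, 800 to 987 CPM in CO-CM and 491 to 546 CPM in PH-CM. The order of the groups was therefore UNX, CO-CM, PH-CM for the cell cycle genes and UNX, PH-CM, CO-CM for the sterol and fatty acid genes. Macrophage markers summed to 11818 to 12613 CPM in UNX, 19014 to 19970 CPM in CO-CM and 21462 to 23274 CPM in PH-CM. Under CO-CM 5 of 8 were called higher and 1 lower, and under PH-CM 7 of 8 higher. The shares called higher among all genes tested were 28% under CO-CM and 31.3% under PH-CM. Proliferation itself was not measured. Its part, or that of what moves the macrophage markers, in the falls against UNX was not tested.

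The genes that control SREBP cleavage and the degradation machinery around it moved little. Of 11, 1 rose and 2 fell under CO-CM, 2 rose and 2 fell under PH-CM. Among all genes tested, 28% rose and 28.9% fell under CO-CM, and 31.3% rose and 31.7% fell under PH-CM. The share called between the media was 27.1%. Between the media none of the 11 was called by edgeR's quasi-likelihood test, and 5 had an unadjusted p under 0.05 (2 higher and 3 lower). Its exact test and DESeq2 also called none. Erlin1, an endoplasmic reticulum protein that binds cholesterol, fell under both (log2 fold changes -0.61 and -0.51). Fbxw7, which marks nuclear SREBPs for degradation, rose by 0.45 and 0.43. The median of the 11 genes was -0.0033 under CO-CM and -0.01 under PH-CM.

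Of the 10 genes of the other isoprenoid branches, 3 fell under each medium, and 1 rose under PH-CM. The share that fell is near that of all genes tested, 28.9% under CO-CM and 31.7% under PH-CM. Rises made up 28% and 31.3% of all genes tested. Pdss1, which makes the side chain of ubiquinone, was at 8.58, 7.66 and 8.74 CPM in UNX, 2.02, 2.17 and 3.39 CPM in CO-CM, and 1.73, 2.30 and 2.37 CPM in PH-CM, and fell under both (log2 fold changes -1.72 and -1.97). Nus1, a subunit of the dolichol synthase, was higher under PH-CM, by 0.80 against UNX and 0.66 against CO-CM. Fntb, the beta subunit of farnesyltransferase, was lower under PH-CM than CO-CM by a log2 fold change of -0.28 (FDR 0.0085).

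A further list held 10 genes around sterol metabolism and electron supply, with no sterol exporter among them. Of these 10, 3 rose and 4 fell under CO-CM, and 4 rose and 4 fell under PH-CM. Of all genes tested, 28% rose and 28.9% fell under CO-CM, and 31.3% rose and 31.7% fell under PH-CM. Cyp27a1, the sterol 27-hydroxylase, was at 7.05, 9.87 and 8.70 CPM in UNX, 24.7, 34.8 and 29.1 CPM in CO-CM, and 17.5, 25.1 and 23.0 CPM in PH-CM. It rose in both media, by 1.79 and 1.35 on the log2 scale. Aacs, which feeds acetoacetate into sterol synthesis, fell by 1.32 under CO-CM and by 0.84 under PH-CM and was higher under PH-CM than CO-CM by 0.48 (FDR 0.0042).

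A longer list of fatty acid and glycerolipid genes held 24 names, of which 20 passed the filter. Under CO-CM 11 fell and 3 rose, where 28.9% of all genes tested fell and 28% rose. Under PH-CM 12 fell and 2 rose, where 31.7% of all genes tested fell and 31.3% rose. Acsl3, an acyl-CoA synthetase of lipid droplets, was at 44.6, 67.7 and 63.5 CPM in UNX, 18.7, 19.0 and 20.3 CPM in CO-CM, and 34.9, 37.3 and 37.1 CPM in PH-CM. It fell by 1.60 under CO-CM and by 0.69 under PH-CM and was higher under PH-CM than CO-CM by 0.91 (FDR 0.00033). Hsd17b12, the ketoreductase of fatty acid elongation, showed another order, with a fall of 1.25 on the log2 scale under PH-CM. Its levels were 194 to 208 CPM in UNX, 101 to 119 CPM in CO-CM and 81.2 to 86.0 CPM in PH-CM. Lpin1, a phosphatidate phosphatase, rose by 0.95 under PH-CM, and Elovl7, near 1 to 2 CPM, rose by 1.31 under CO-CM. PH-CM against CO-CM gave 4 higher and 6 lower calls among the 20 (12.2% and 15% of all genes tested), with a median of -0.09.

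The liver X receptors (LXRs) are sterol-sensing factors that act in the opposite sense to SREBP2, raising cholesterol export, and also switch on Srebf1. Of 6 genes, 3 rose and 1 fell under each medium, in part other genes, beside 28% higher and 28.9% lower among all genes tested under CO-CM and 31.3% and 31.7% under PH-CM. Abca1, the cholesterol exporter, was at 116, 212 and 178 CPM in UNX, 191, 232 and 155 CPM in CO-CM, and 720, 846 and 757 CPM in PH-CM. It rose by 2.20 ± 0.20 under PH-CM (FDR 3.7e-06) and had an estimate of 0.19 ± 0.20 under CO-CM. Abcg1, the partner exporter, was at 60.8, 125 and 112 CPM in UNX, 105, 178 and 141 CPM in CO-CM, and 43.0, 59.2 and 47.0 CPM in PH-CM. It was lower under PH-CM than CO-CM (log2 fold change -1.50, FDR 0.0012), while Abca1 was higher (2.01, FDR 3.8e-05). Nr1h3, which encodes LXR alpha, rose by 0.99 under CO-CM, and Lpcat3, a phospholipid-remodelling enzyme, fell by 0.39 under CO-CM.

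**Figure D5:**
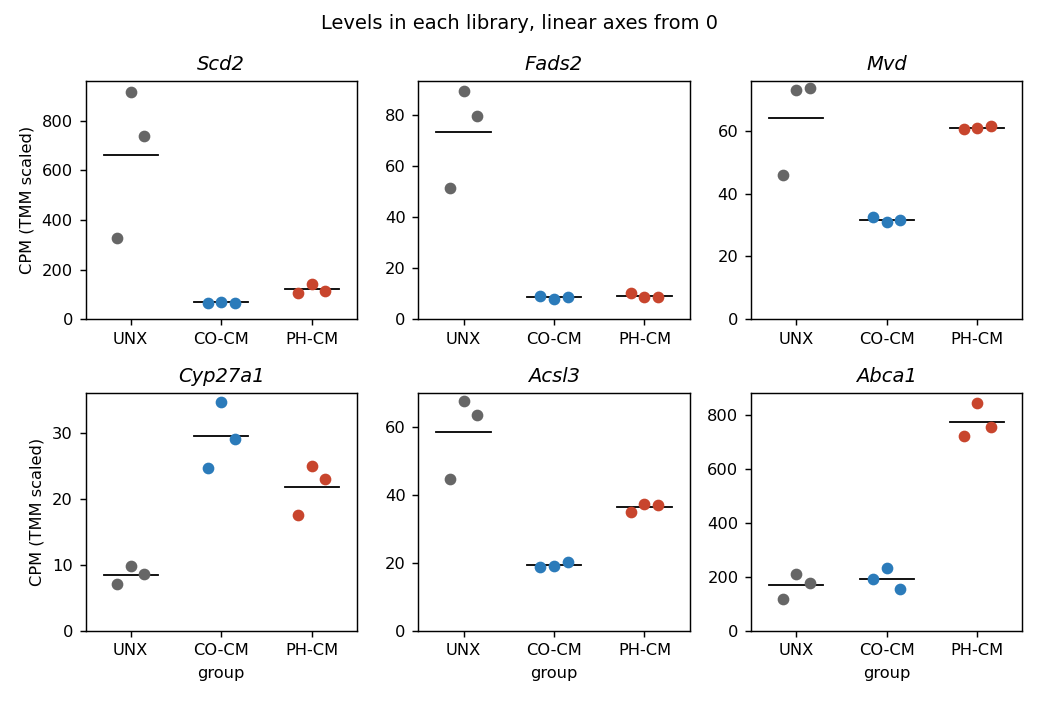
CPM in each library (points) and group mean (line) for Scd2, Fads2 and Mvd of the 33 genes and for Cyp27a1, Acsl3 and Abca1 of the wider lists, on linear axes from 0. Scd2 and Fads2 fall under both media, Mvd and Acsl3 lie higher under PH-CM than CO-CM, Cyp27a1 rises under both media and Abca1 reaches 720 to 846 CPM under PH-CM.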

How the data were processed

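RNA-Seq was measured in 9 BMDM libraries, 3 per group, grouped and numbered by their labels. Per the labels, the authors trimmed the reads, aligned them with STAR to GRCm38 and counted them on exons with featureCounts 1.6.2. The authors deposited whole-number counts per gene without normalization. They also deposited RPKM values, these counts divided by exon length and by the library's counted reads, used here for levels between genes. Their comparison tables hold log2 fold changes, mean log2 CPM, p-values and FDRs, and were not used. Counts below 20 were even in 81.4% to 83.8% of cases per library, which points to mates having been counted singly. The counting options listed in the study's methods set neither strand, nor pairing, nor reads that align to several places. By default the tool counts without strand, counts mates singly and leaves out reads that align to several places.

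The analysis used edgeR 4.0.16 in R 4.3.3, with genes with CPM above 1 in at least 3 libraries, TMM scaling and one quasi-likelihood fit of all 9 libraries. P-values were adjusted by Benjamini-Hochberg over the 11950 genes tested, and genes were called at FDR 0.05 or lower with a change of 1.2-fold or more. Levels are CPM with TMM factors, and log2 CPM used a prior count of 2. The fit was tested on simulated data with 200 changed genes. The 33 genes and the wider lists were chosen with earlier results of these data known. Named were all 33 genes and, for each wider list and comparison, the called gene with the largest rise and with the largest fall. Marker lists were summed. Gene positions are from GENCODE on GRCm38 and promoters from RefSeq, GRCm38.p6.

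Libraries with the same replicate number deviated together from their group means (r from 0.276 to 0.484 in 9 pairs, against -0.376 to 0.042 in 18 pairs of other numbers), so the libraries were treated as paired by number in an alternative fit with replicate number as a block. The study's methods describe 3 repeats of the experiment, without saying that the replicate numbers mark them. No 2 libraries of a group agreed within sampling noise. The p-values measure the spread between these cultures. Alternatives were edgeR's exact test, DESeq2 1.42.0, other scalings, filters and thresholds, fits of 2 groups, counts divided by 2, and each library left out in turn.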

Additional observations from a re-analysis of the deposited data

How the results depend on the processing

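Direction and call were kept in 526 of 528 values against UNX under CO-CM, 510 of 528 under PH-CM and 488 of 528 for PH-CM against CO-CM, over the 33 genes and 16 alternatives that give a fold change. At a fold change threshold of 2, the calls dropped to 18 under CO-CM, 10 under PH-CM and 0 for PH-CM against CO-CM, fewer by construction. Other alternatives gave 29 calls under CO-CM, 24 to 29 under PH-CM and 12 to 19 for PH-CM against CO-CM. With the replicate block the counts were 29, 26 and 19, and the block changed no call other than those given above. The shares of all genes called under these thresholds and alternatives are not given here, so the counts are a description. The estimates that changed sign were of genes that were not called. For Insig2 under PH-CM they were -0.037 with library size alone, -0.0248 with no filter and -0.019 with filterByExpr. With 1 library left out, the estimates under PH-CM ran from -0.021 to 0.035 for Insig2, -0.28 to 0.024 for Mvd (above 0 without UNX replicate 2 or 3) and -0.23 to 0.0042 for Tm7sf2, and those of Acss2 under CO-CM from -0.37 to 0.055. The cause was not tested. The fatty acid mean of PH-CM minus CO-CM was 0.30, and 0.27 with upper-quartile factors, 0.26 from log2 of RPKM plus 1, and 0.30 to 0.32 with 1 library left out. From RPKM, the sterol minus fatty acid difference rose against UNX by 0.67 under PH-CM and 0.60 under CO-CM, against 0.77 and 0.69 from CPM. Among all called genes under CO-CM the share of higher calls was 49.2% with TMM, 56.3% with upper-quartile factors and 41.4% with library size alone. Dividing the counts by 2 left 29 calls under CO-CM, 25 under PH-CM and 14 for PH-CM against CO-CM, but adds no sampling noise and so does not test depth. The fewest reads of any of the 33 genes in a library were 168, for Fdps.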
